A study of Mus musculus with 30 samples.

Results

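Livers of mice under stress that carried a pump releasing acyl-CoA-binding protein were compared with livers of unstressed mice with the same pump. The stressed group, CRS+ACBP, and its control, ACBP, hold 5 libraries each. These 10 of 30 libraries were taken by the treatment in their labels, and the comparison was fitted on them alone. Every mouse of the study was a wild type female C57BL/6 J animal, 8 weeks old when an ALZET osmotic pump was implanted. The pumps of CRS+ACBP and ACBP mice held the protein at 2.5 mg/mL, and those of CRS and PBS mice, 5 libraries each, held PBS. In CRS+ACBP and CRS mice, the stress labelled CRS, the usual letters for chronic restraint stress, began 48 h after the pump and was used to induce anorexia. CRS and PBS share no library with the main comparison, and their fold changes are given beside its own. The time of collection, the length of restraint and the food eaten were not given in the sources used here, and each condition was tested in 1 sex and 1 strain.

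Acyl-CoA-binding protein, encoded by Dbi, carries long-chain acyl-CoA esters inside cells and, once released, acts as a signal that promotes food intake. Restraint activates the hypothalamic-pituitary-adrenal axis, so that glucocorticoids and catecholamines reach the liver together with the signals of reduced feeding. Hepatocytes answer stress hormones and cytokines with acute phase proteins, insulin and fasting with metabolic enzymes, and the pattern of growth hormone release with a set of genes that differ between male and female livers.

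The counts on genes ran between 15376103 and 17245912 reads in CRS+ACBP and between 15202935 and 16797443 in ACBP libraries. Levels are given as CPM, the usual measure of reads relative to library size, with library sizes scaled by trimmed means of M values (TMM). Hepatocyte markers summed to 123864 to 136440 CPM in CRS+ACBP and 108478 to 143788 CPM in ACBP libraries, as in liver. Skeletal muscle markers summed to 274, 770.5, 2944, 2526 and 22.2 CPM in CRS+ACBP and to 69.7, 2571, 33.4, 153 and 31.6 CPM in ACBP libraries. All 20 muscle genes had a log2 fold change above 0, their median was 1.09, and 0 had an unadjusted p under 0.05. Brain markers summed to 309 CPM in ACBP replicate 4 and to 24.7 to 35.8 CPM in the other 9 libraries, and the same library held 1518 CPM of erythroid markers, against 433 to 518 CPM in the other ACBP libraries. Counts below are therefore also given without ACBP replicate 4. No pair of libraries within either group agreed within sampling noise. The labels do not name the animal of each library, so p-values measure the spread between these samples.

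Restraint under the ACBP pump gave no gene past an adjusted p of 0.05 by edgeR's quasi-likelihood test, of 14830 tested (0%). The smallest adjusted p was 0.207, and without ACBP replicate 4 it was 0.162, again with 0 of 15038 genes (0%) past the threshold. At an unadjusted p under 0.05, 720 genes (4.86%) were higher in CRS+ACBP and 908 (6.12%) were lower. Without ACBP replicate 4 these were 456 (3.03%) and 734 (4.88%). DESeq2 called 72 genes (0.486%), 31 higher (0.209%) and 41 lower (0.276%), and 50 without that library, while limma voom called 0 and had 2283 genes at an unadjusted p under 0.05. Leaving out a library gave edgeR calls in 3 of 10 cases, Srd5a1 without ACBP replicate 3, Slco1a1 without ACBP replicate 5, and Dock6, Adamts7, Hmha1 and Tmsb10 without CRS+ACBP replicate 5. Genes are therefore described by their values, and counts of list members are read against the shares over all genes tested.

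Among the 10 genes with the smallest p were Slco1a1, Mup10, Mup7, Mup11, Cela1 and Dntt, higher in CRS+ACBP, and Adamts7, Dock6 and Zbed4-ps1, lower. Slco1a1, Mup10, Mup7 and Mup11 belong to the male-high genes described next. Cela1, a secreted serine protease of the elastase family, stood at 35.6, 36.7, 21.1, 20.5 and 18.6 CPM in CRS+ACBP and at 13, 9.85, 8.36, 7.22 and 14.2 CPM in ACBP livers. The groups did not overlap, and the log2 fold change was 1.31 ± 0.24 (SE), with an edgeR adjusted p of 0.207. Dntt, a DNA polymerase known from lymphocyte precursors, was counted at 4.41, 5.03, 3.13, 3.72 and 6.58 CPM in CRS+ACBP and 2.14, 1.09, 0.836, 0.722 and 1.66 CPM in ACBP livers, again without overlap. Adamts7, a secreted metalloprotease, had 12.4, 14, 13.4, 10.6 and 18.4 CPM in CRS+ACBP and 24.9, 21.3, 28.7, 36.7 and 27.5 CPM in ACBP livers, which did not overlap (log2 fold change -1.03 ± 0.18 (SE)). Dock6, a guanine nucleotide exchange factor of small GTPases, was at 31, 32.2, 34.4, 28.8 and 44.7 CPM in CRS+ACBP and 57.2, 47.7, 58.8, 60.1 and 55.9 CPM in ACBP livers, again without overlap. The annotation places Angptl8 inside Dock6 and Tbc1d2b over part of Adamts7, each on the opposite strand. The strand setting of the counting is not given, so reads of these pairs cannot be told apart. Zbed4-ps1, a pseudogene within Sult2a5, was below 1 CPM in all 5 CRS+ACBP livers and between 0.819 and 4.03 CPM in ACBP livers.

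Genes that are transcribed more in male than in female mouse liver were higher in these restrained females by the counts over their list. Of 32 tested members, 29 had a log2 fold change above 0, against 50.6% of all genes, and 25 were higher at an unadjusted p under 0.05, against 4.86% of all genes. None was lower at that level. In 7 of the 32 the groups did not overlap and CRS+ACBP was higher, against 0.782% of all genes, and DESeq2 called 13 higher, against 0.209%. The median log2 fold change was 1.03, where that of all genes was 0.0045. Without ACBP replicate 4 the members at an unadjusted p under 0.05 numbered 22 and the median was 1.0. No left-out library took the number under 21.

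Slco1a1 encodes a hepatic organic anion transporter (GRCm38 chromosome 6, 141907282 to 141946962, minus strand). It stood at 169, 101, 98.2, 76.9 and 141 CPM in CRS+ACBP livers and at 19.7, 30.7, 24.4, 11.2 and 54.1 CPM in ACBP livers. Each restrained liver was above each unrestrained one, and the log2 fold change was 2.05 ± 0.35 (SE), with an edgeR adjusted p of 0.207 and a DESeq2 adjusted p of 1.27e-06. The major urinary proteins, secreted by the liver and used in scent marking, covered a wider range of fold changes. Mup11 was at 59.5, 38.8, 46.9, 21.9 and 156 CPM in CRS+ACBP and at 2.9, 13.8, 2.39, 1.93 and 11.8 CPM in ACBP livers, with a log2 fold change of 3.30 ± 0.63 (SE). Mup7 was at 9.38, 3.0, 1.69, 0.90 and 12.5 CPM in CRS+ACBP and 0.189, 0.256, 0.239, 0.361 and 0.798 CPM in ACBP livers, so its log2 fold change of 3.86 ± 0.72 (SE) rests on low counts. Mup10 was at 14.5, 15.2, 15.9, 18.5 and 14.1 CPM in CRS+ACBP and 5.99, 7.61, 3.82, 3.25 and 8.78 CPM in ACBP livers, the tightest restrained group of the family named here. The groups did not overlap for any of these 3 genes. Mup genes are near-identical copies, so the split of reads between them is uncertain.

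Further members are named here after their values were seen. Hsd3b5, a male-liver 3-ketosteroid reductase, was at 16.3, 5.4, 6.0, 1.56 and 15.4 CPM in CRS+ACBP and at 0.756, 0.64, 1.02, 0.361 and 2.27 CPM in ACBP livers. The lowest restrained liver, replicate 4, lay below the highest unrestrained one, and the log2 fold change was 3.12 ± 0.61 (SE). Cyp2d9, a steroid hydroxylase of male mouse liver, was at 141, 67, 105, 75.8 and 135 CPM in CRS+ACBP and 46, 54.8, 17.1, 34.8 and 59 CPM in ACBP livers, without overlap (log2 fold change 1.29 ± 0.30 (SE)). Nudt7, a peroxisomal coenzyme A diphosphatase, had 185 ± 22 CPM in CRS+ACBP and 102 ± 36.6 CPM in ACBP livers (mean ± SD, n = 5 each), and did not overlap either. Egfr, the epidermal growth factor receptor, averaged 239 ± 66 CPM in CRS+ACBP and 122 ± 41 CPM in ACBP livers. C8b, which encodes a chain of complement component C8, averaged 132 ± 50.8 CPM in CRS+ACBP and 68.6 ± 15.4 CPM in ACBP livers. Cyp7b1, an oxysterol hydroxylase, averaged 19.3 ± 4.88 CPM in CRS+ACBP and 9.98 ± 2.89 CPM in ACBP livers. For Egfr, C8b and Cyp7b1 the lowest restrained liver lay within the range of the unrestrained ones, by a narrow margin for Cyp7b1.

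CRS+ACBP replicates 1 and 5 held the highest level of the 10 libraries for 15 and 9 of the 32 genes, and ACBP replicates 3 and 4 the lowest for 9 and 10. CRS+ACBP replicate 4 was the least shifted restrained liver, with 15 of 32 members above the median of the 10 libraries, against 25 to 29 in the other 4. Of 30 tested genes that are higher in female liver, 4 were higher and 6 lower at an unadjusted p under 0.05, against 4.86% and 6.12% of all genes. DESeq2 called 0 higher and 3 lower, against 0.209% and 0.276%. The median was -0.01. The 2 with the smallest p, Hamp2 and Hao2, were lower and are described with the metabolic genes. Cyp2c40, named after its values were seen, averaged 385 ± 77 CPM in CRS+ACBP and 236 ± 61.1 CPM in ACBP livers, and Sult2a2, likewise, averaged 12.3 ± 5.19 CPM in CRS+ACBP and 27 ± 7.15 CPM in ACBP livers. Both have close paralogs. The male-high median under the PBS pump was also 1.03, over 30 tested genes, and 12 rose in CRS against PBS at an edgeR adjusted p under 0.05, against 0.962% of all genes.

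**Figure D1:**
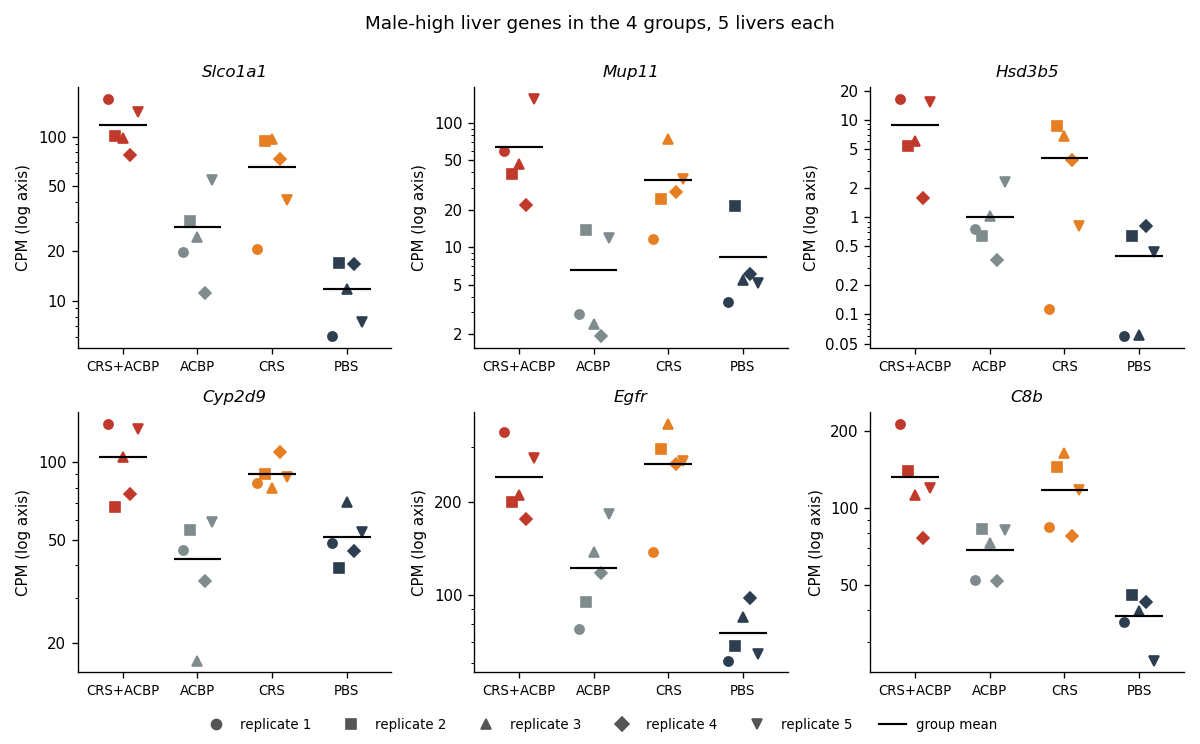
Levels of 6 male-high liver genes in each library, in CPM on a log axis, with 5 libraries per group, 1 symbol per replicate number and a line at the group mean. Slco1a1, Mup11 and Cyp2d9 lie higher in every CRS+ACBP liver than in any ACBP liver, while Hsd3b5, Egfr and C8b overlap at the edge.

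Acute phase proteins, which hepatocytes secrete under interleukin-6 and glucocorticoids, were weakly and unevenly higher with restraint under the ACBP pump. Of 30 tested genes, 7 were higher at an unadjusted p under 0.05, against 4.86% of all genes, and 0 were lower. DESeq2 called Orm2 and Serpina3k higher, against 0.209% of all genes, and the median log2 fold change was 0.20. Without ACBP replicate 4, 6 were higher and the median was 0.19. Without ACBP replicate 2, the unrestrained liver with the highest Saa1, Saa2 and Lcn2, 12 were higher. In CRS against PBS 13 of 30 acute phase genes rose and 1 fell, by edgeR adjusted p under 0.05, and the median was 0.68. Of all genes 0.962% rose and 0.821% fell there.

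Saa2, a serum amyloid A gene, was the 1 gene whose restraint effect differed between the pumps by the edgeR test. Its upstream sequence is shown beside that of its neighbour and close copy Saa1. The 250 bases before each start site, from RefSeq on GRCm38.p6, aligned with 238 identical bases in 251 columns (94.8%). Capitals mark a C/EBP site, ATTGC and AAT with 2 bases of any kind between, searched on both strands and chosen after the sequences were seen.
Saa2, chr7:46751583-46751832, plus strand: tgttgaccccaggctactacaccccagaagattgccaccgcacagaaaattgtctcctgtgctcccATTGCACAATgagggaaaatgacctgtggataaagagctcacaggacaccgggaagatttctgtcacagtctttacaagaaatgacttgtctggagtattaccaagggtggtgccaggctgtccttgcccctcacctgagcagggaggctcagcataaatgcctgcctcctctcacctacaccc
Saa1, chr7:46742981-46743230, minus strand: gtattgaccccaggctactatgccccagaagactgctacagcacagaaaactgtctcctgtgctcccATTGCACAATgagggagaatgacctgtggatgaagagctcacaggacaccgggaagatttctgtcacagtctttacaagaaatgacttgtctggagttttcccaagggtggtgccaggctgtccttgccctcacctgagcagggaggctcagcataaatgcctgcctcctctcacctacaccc
This match starts 184 bases before the Saa2 start site and 183 bases before that of Saa1. It is present in 177 of 32851 promoters (0.539%) and in 2 of 27 promoters of acute phase genes (7.41%), which are those of Saa2 and Saa1 from which it was chosen, so that share says nothing of the list. A pair of STAT half-sites, TTCNNNGAA, was found in 6 of 27 acute phase promoters (22.2%), in 3 of 28 male-high promoters (10.7%) and in 7.02% of all promoters, and the motifs do not overlap. A match describes letters in this window and is not evidence of binding.

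Saa2 was at 126, 90.5, 7.57, 30.7 and 26.8 CPM in CRS+ACBP and at 6.49, 36.7, 20.5, 12.7 and 13 CPM in ACBP livers. Restrained replicates 1 and 2 stood above every unrestrained liver, and replicate 3 lay among the lowest. Under the PBS pump the same gene was at 968, 602, 1336, 396 and 1577 CPM in CRS and at 6.39, 4.42, 9.15, 5.66 and 8.06 CPM in PBS livers, with no overlap. The log2 fold change was 1.63 ± 0.62 (SE) under the ACBP pump and 7.16 ± 0.42 (SE) under the PBS pump. The difference between these, -5.52 ± 0.82 (SE), passed the edgeR test of the interaction over 20 libraries, with an adjusted p of 0.0171. It was 1 of 15762 genes (0.00634%), and 655 had an unadjusted p under 0.05. The call was lost when any of 6 libraries was left out, which were CRS+ACBP replicate 4 (adjusted p 0.0686), CRS+ACBP replicate 5 (0.0575) and PBS replicates 1, 2, 4 and 5 (0.0643, 0.0510, 0.0688 and 0.0530). It was also lost with all 30 libraries in 1 fit, at an adjusted p of 0.836. Over the left-out libraries the log2 difference stayed between -6.06 and -5.09.

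The 4 genes that followed by p, none past the threshold by edgeR, show how the levels were arranged. By DESeq2 the difference passed for Lcn2 (adjusted p 0.00303), Saa1 (0.00693) and Tnfrsf14 (0.00693), as for Saa2 (5.87e-08). It did not pass for Gm28229 (0.0543). Saa1 was at 485, 258, 13.4, 91.4 and 86.8 CPM in CRS+ACBP and 10.2, 95.6, 24.3, 27.4 and 18.8 CPM in ACBP livers, against 1197, 979.5, 1726, 637 and 2052 CPM in CRS and 11.1, 10.2, 14.5, 8.43 and 10.1 CPM in PBS livers (edgeR adjusted p of the difference 0.297). Lcn2, which encodes the iron-siderophore carrier lipocalin-2, was at 70.6, 109.9, 21.2, 61.6 and 45.9 CPM in CRS+ACBP and 12.2, 88.9, 19.5, 29.3 and 9.64 CPM in ACBP livers, against 249, 172, 246, 186 and 417 CPM in CRS and 14.4, 10.2, 10.9, 7.63 and 7.93 CPM in PBS livers (adjusted p 0.229). For both, each CRS liver lay above each CRS+ACBP liver, and the ACBP livers reached higher than the PBS livers. Tnfrsf14, a receptor of the tumour necrosis factor family, was arranged otherwise. It was at 6.34, 8.83, 7.0, 10.4 and 6.64 CPM in CRS+ACBP and 7.94, 3.39, 0.239, 8.49 and 3.25 CPM in ACBP livers, against 8.89, 10.5, 8.19, 11.8 and 8.47 CPM in CRS and 0.478, 0.523, 0.737, 0.246 and 0.25 CPM in PBS livers (adjusted p 0.243). Here the ranges of both stressed groups overlapped, and the smaller fold change under the ACBP pump goes with 4 of 5 ACBP livers above every PBS liver. Without ACBP replicate 3, the exception, its difference passed the test (log2 -3.96, adjusted p 0.000358). Gm28229, a noncoding gene, had a log2 difference of 1.11 (adjusted p 0.488).

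Orm2, an orosomucoid, was at 311, 340.4, 99.1, 249 and 171 CPM in CRS+ACBP and at 50.2, 123, 55.8, 71.4 and 41.3 CPM in ACBP livers. Restrained replicate 3 fell within the unrestrained range, and the log2 fold change was 1.75 ± 0.35 (SE), with an edgeR adjusted p of 0.207. Serpina3k, a serine protease inhibitor of a multigene family, averaged 5745 ± 1463 CPM in CRS+ACBP and 2839.5 ± 1207 CPM in ACBP livers. CRS+ACBP replicate 1 held the highest level of the 10 libraries for 16 of the 30 acute phase genes.

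**Figure D2:**
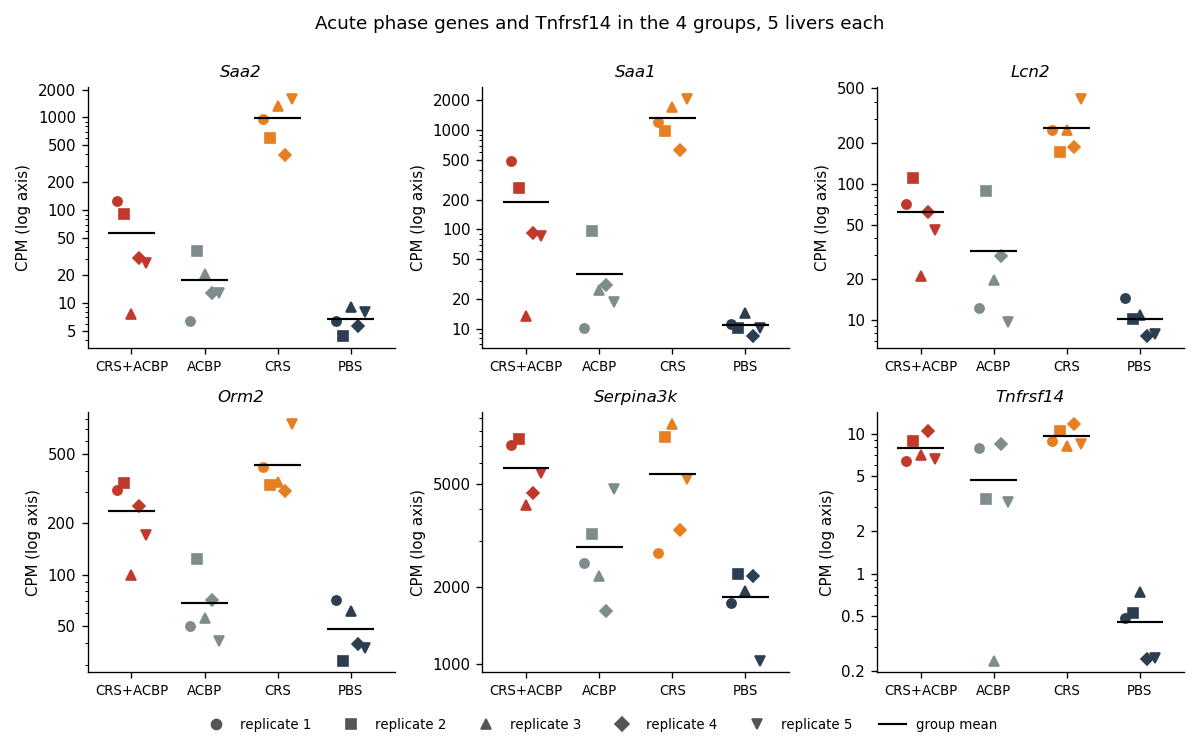
Levels of 5 acute phase genes and Tnfrsf14 in each library, in CPM on a log axis, with 5 libraries per group, 1 symbol per replicate number and a line at the group mean. Saa2 lies between 7.57 and 126 CPM in CRS+ACBP and between 396 and 1577 CPM in CRS livers.

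Immediate early genes, which cells transcribe within minutes of a growth factor, hormone or mechanical stimulus, were lower with restraint. All 22 tested members had a log2 fold change below 0, against 49.4% of all genes, and 12 were lower at an unadjusted p under 0.05, against 6.12%. In 3 the groups did not overlap and CRS+ACBP was lower, against 1.15% of all genes, and DESeq2 called 3 lower, against 0.276%. The median log2 fold change was -0.70, and without ACBP replicate 4 it was -0.61, with 9 members lower. That library held the highest level of the 10 for 10 of the 22. In CRS against PBS the median was -0.70 too, and 3 of 22 fell by the edgeR test, against 0.821% of all genes.

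Jun, a subunit of the AP-1 transcription factor, was at 9.63, 5.95, 15.8, 5.82 and 7.66 CPM in CRS+ACBP and at 22.6, 19.5, 21.3, 73.4 and 20.4 CPM in ACBP livers. The groups did not overlap, but ACBP replicate 4, which also holds brain transcripts, was the highest by far, and the log2 fold change of -1.83 ± 0.41 (SE) was -1.24 without it. Gadd45b, a stress-induced regulator of MAP kinase signalling, was at 4.6, 3.07, 4.82, 5.76 and 4.07 CPM in CRS+ACBP and 14.2, 9.73, 9.73, 11.4 and 5.16 CPM in ACBP livers (log2 fold change -1.19 ± 0.27 (SE)), with overlap at ACBP replicate 5. Dusp1, a MAP kinase phosphatase that glucocorticoids also induce, was at 18.1, 10.4, 32.7, 34.4 and 14 CPM in CRS+ACBP and at 188, 103, 13.8, 113 and 62.5 CPM in ACBP livers. ACBP replicate 3 was as low as the restrained livers, and the log2 fold change was -2.15 ± 0.53 (SE). Dusp1 overlaps Ergic1 on the opposite strand. 3 further genes are named after their values were seen. Zfp36, which promotes decay of cytokine mRNAs, averaged 113 ± 12.7 CPM in CRS+ACBP and 223 ± 108 CPM in ACBP livers and did not overlap. Fos, the partner of Jun in AP-1, had a log2 fold change of -2.64, which was -1.73 without ACBP replicate 4. Nr4a1, an orphan nuclear receptor, was at 1.93, 2.08, 3.31, 3.42 and 2.51 CPM in CRS+ACBP and 133, 5.44, 2.27, 7.76 and 4.6 CPM in ACBP livers, with overlap at ACBP replicate 3. Its log2 fold change of -3.56 was -0.93 without ACBP replicate 1.

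Targets of the glucocorticoid receptor were lower more often than higher. Of 32 tested genes, 10 were lower (6.12% of all genes) and 1 higher (4.86%) at an unadjusted p under 0.05, and the median log2 fold change was -0.35. DESeq2 called 2 lower, against 0.276% of all genes. The 2 members of smallest p, Gadd45b and Dusp1, are described above with the immediate early genes, so the 2 lists are not separate results. Without ACBP replicate 4, 9 were lower, and over the 10 left-out libraries the number ran between 8 and 12. ACBP replicate 2 held the highest level of 14 of the 32. Igfbp1, which encodes an insulin-like growth factor binding protein that insulin represses, was at 45.8, 17, 22.8, 34.4 and 15.8 CPM in CRS+ACBP and 147, 53.2, 46.4, 48.7 and 55.2 CPM in ACBP livers. The groups did not overlap, ACBP replicate 1 stood apart, and the log2 fold change was -1.39 ± 0.37 (SE). Tat, tyrosine aminotransferase, averaged 775 ± 159 CPM in CRS+ACBP and 1119 ± 322 CPM in ACBP livers. Per1, a clock gene that glucocorticoids induce, was at 11.8, 64.3, 51.8, 61.8 and 46.2 CPM in CRS+ACBP and 42, 134, 122, 118 and 79.4 CPM in ACBP livers. Replicate 1 was the lowest of each group, and ACBP replicate 1 lay within the restrained range. Sgk1, a glucocorticoid-induced kinase named after its values were seen, averaged 10.8 ± 3.49 CPM in CRS+ACBP and 17.1 ± 1.8 CPM in ACBP livers. In CRS against PBS 3 of 33 targets fell and 1 rose at an edgeR adjusted p under 0.05, and the median was -0.18. Of all genes 0.821% fell and 0.962% rose there.

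Single metabolic genes differed between the groups in level without passing the test. Angptl8, a feeding-induced inhibitor of lipoprotein lipase, was at 102, 93.7, 116, 129 and 109 CPM in CRS+ACBP and at 262, 126, 186, 397 and 142 CPM in ACBP livers, with a log2 fold change of -1.04 ± 0.27 (SE). Without ACBP replicate 4, the highest control, that fold change was -0.73. Reads of Angptl8 and Dock6 cannot be told apart, as said above. Restrained livers spanned a narrow range and the controls a wide one, with overlap at ACBP replicate 2. Angptl8 fell in CRS against PBS, with a log2 fold change of -2.57 and an edgeR adjusted p of 0.00614. The difference between the pumps did not pass the test (adjusted p 1.0). Cyp8b1, the sterol 12-alpha-hydroxylase that sets the mix of bile acids, was at 283, 275, 234, 146 and 206 CPM in CRS+ACBP and 177, 47.8, 43.8, 77.4 and 116 CPM in ACBP livers, with ACBP replicate 1 inside the restrained range. Apoa4, an apolipoprotein of triglyceride-rich particles, averaged 425 ± 110.2 CPM in CRS+ACBP and 254 ± 79.1 CPM in ACBP livers, and an antisense gene over it has nearly the same count. Hao2, a peroxisomal hydroxyacid oxidase, was at 2.73, 5.52, 8.25, 7.62 and 7.05 CPM in CRS+ACBP and 21.5, 6.53, 37.7, 18.8 and 18.4 CPM in ACBP livers (log2 fold change -1.74 ± 0.39 (SE)), with overlap at ACBP replicate 2. Hamp2, a paralog of the iron hormone hepcidin, averaged 574 ± 207 CPM in CRS+ACBP and 1558 ± 614 CPM in ACBP livers without overlap, and shares its position with a noncoding gene of the opposite strand with a like count.

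The lists of fatty acid oxidation and of cholesterol synthesis lay mostly above 0, where 50.6% of all genes did. Their counts depended on single libraries. The median log2 fold change of the fatty acid oxidation list was 0.20 here and -0.11 in CRS over PBS. For the cholesterol list it was 0.25 in CRS over PBS. In both lists 0 members had a called difference between the pumps. Of 37 PPARalpha and fatty acid oxidation genes, 32 had a log2 fold change above 0 and 6 were higher at an unadjusted p under 0.05 (4.86% of all genes), but only 1 was without ACBP replicate 4. That library held the lowest level of the 10 for 24 of the 37. The number was 3 without ACBP replicate 3, 3 without CRS+ACBP replicate 1 and 2 without CRS+ACBP replicate 3. Hadhb, a subunit of the mitochondrial trifunctional protein, averaged 98.8 ± 22.2 CPM in CRS+ACBP and 66.9 ± 13.1 CPM in ACBP livers. Of 25 cholesterol synthesis and uptake genes, 21 lay above 0, with a median of 0.28, and 4 were higher at an unadjusted p under 0.05. They were 3 without ACBP replicate 4, 2 without ACBP replicate 2, 1 without ACBP replicate 3 or CRS+ACBP replicate 3, and 7 without ACBP replicate 5. Cyp51, lanosterol demethylase, averaged 189 ± 35.2 CPM in CRS+ACBP and 123 ± 25.7 CPM in ACBP livers, and Hsd17b7, a later enzyme of the pathway, 50.1 ± 10.2 CPM in CRS+ACBP and 35.6 ± 8.82 CPM in ACBP livers. Of 25 fatty acid synthesis genes, 15 lay above 0. At an unadjusted p under 0.05, 3 were higher and 1 lower, against 4.86% and 6.12% of all genes. Adipocyte markers summed to 34.4 to 135 CPM in CRS+ACBP and 24.1 to 78 CPM in ACBP livers, and 2 of 4 tested were higher at an unadjusted p under 0.05; their part in these lists was not tested. The delta-6 desaturase gene Fads2 averaged 138 ± 36.7 CPM in CRS+ACBP and 81.7 ± 16.4 CPM in ACBP livers. Acacb, a mitochondrial acetyl-CoA carboxylase, averaged 111 ± 22 CPM in CRS+ACBP and 72.2 ± 18.8 CPM in ACBP livers.

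**Figure D3:**
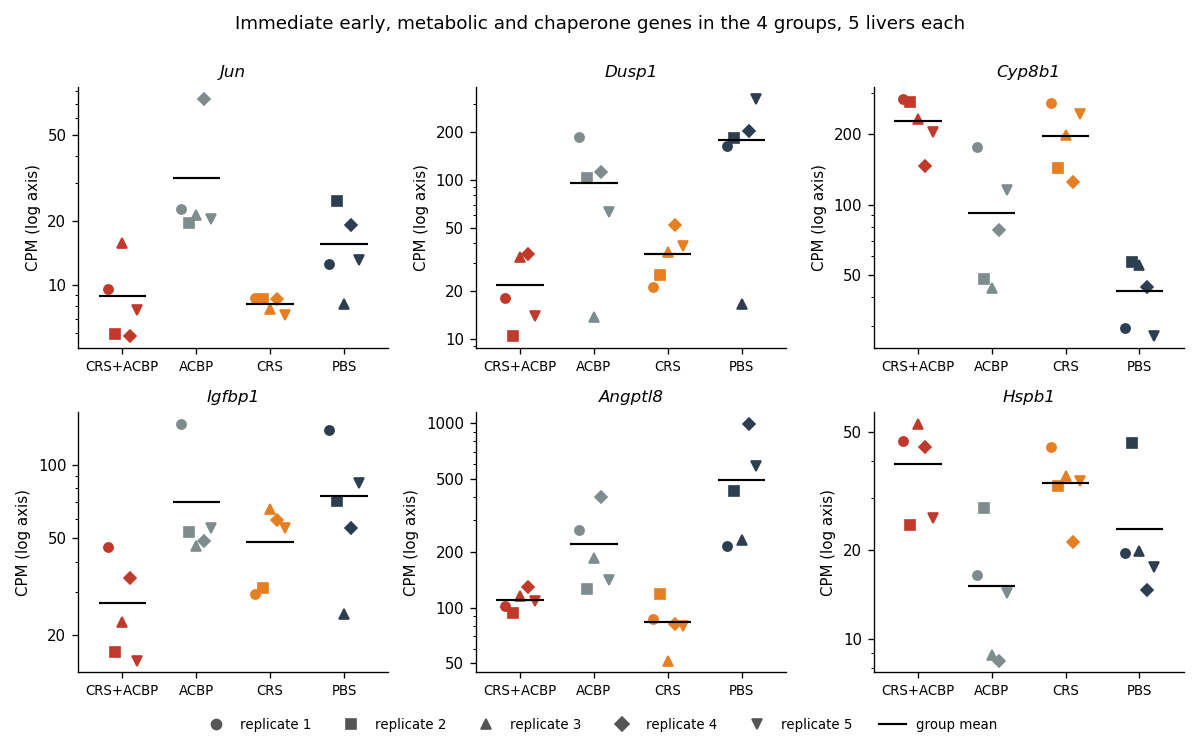
Levels of Jun, Dusp1, Cyp8b1, Igfbp1, Angptl8 and Hspb1 in each library, in CPM on a log axis, with 5 libraries per group, 1 symbol per replicate number and a line at the group mean. Jun and Igfbp1 do not overlap between CRS+ACBP and ACBP livers, and Igfbp1 reaches 45.8 CPM at most in CRS+ACBP livers and 46.4 CPM at least in ACBP livers.

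Chaperones of the cytosol and mitochondria were higher in restrained livers by their counts. Of 19 tested heat shock chaperones, 17 had a log2 fold change above 0 and 11 were higher at an unadjusted p under 0.05 (4.86% of all genes), with a median of 0.44. Without ACBP replicate 4, 8 were higher, and without CRS+ACBP replicate 3, which held the highest level for 9 of the 19, 7 were. By edgeR adjusted p, 0 of 19 were called here and 0 of 18 in CRS against PBS, where the median was 0.13, and 0 had a called difference between the pumps. Hspb1, a small heat shock protein also made in muscle, was at 46.9, 24.4, 53.5, 44.7 and 25.6 CPM in CRS+ACBP and at 16.5, 27.7, 8.84, 8.49 and 14.4 CPM in ACBP livers. The groups overlapped at ACBP replicate 2, the control with the most muscle RNA, and the log2 fold change was 1.35 ± 0.32 (SE). With the muscle score as a covariate, the log2 fold change of Hspb1 was 1.08 (edgeR adjusted p 0.229). Ahsa1, an activator of HSP90, did not overlap, at 94.2, 74.4, 90.2, 70.4 and 60.7 CPM in CRS+ACBP and 58.1, 58.6, 48.2, 48.7 and 58.4 CPM in ACBP livers. With the muscle score as a covariate 7 of the 19 were higher. 4 members are named after their values were seen. Hsp90ab1 and Hsp90aa1, the cytosolic HSP90 chaperones, averaged 624 ± 161 and 168 ± 50.4 CPM in CRS+ACBP livers, against 413 ± 37.8 and 91.3 ± 28.8 CPM in ACBP livers. Hspd1 and Hspe1, the mitochondrial chaperonin and its co-chaperonin, averaged 279 ± 61.4 and 178 ± 33.2 CPM in CRS+ACBP livers, against 191 ± 21.8 and 128 ± 21.7 CPM in ACBP livers. Their log2 fold changes were 0.53 and 0.46 in CRS+ACBP over ACBP and 0.54 and 0.47 in CRS over PBS.

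The unfolded protein response, by which cells raise chaperones of the endoplasmic reticulum, was highest in 1 library. Of 23 tested genes, 21 had a log2 fold change above 0, with a median of 0.39. At an unadjusted p under 0.05, 7 were higher, against 4.86% of all genes. CRS+ACBP replicate 1 held the highest level of the 10 libraries for 19 of the 23, and without it 3 were higher. The number was 3 without ACBP replicate 4, 2 without ACBP replicate 3, 4 without CRS+ACBP replicate 3, 13 without CRS+ACBP replicate 2 and 15 without CRS+ACBP replicate 4. Hspa5, the reticulum's HSP70 (BiP), named after its values were seen, was at 927, 244, 407, 242 and 358 CPM in CRS+ACBP and at 301, 245, 189, 240.4 and 319 CPM in ACBP livers. Pdia6, a protein disulfide isomerase, was at 325, 154, 175, 133 and 183 CPM in CRS+ACBP and 108, 122, 101, 104 and 148 CPM in ACBP livers, and Dnajb9, a co-chaperone of BiP, at 54.7, 18.9, 34.1, 20.5 and 26.4 CPM in CRS+ACBP and 9.83, 16.7, 12.3, 22.4 and 20.4 CPM in ACBP livers. Replicate 1 was the highest restrained liver for all 3, and for each of them at least 1 other restrained liver lay within the range of the controls. Under the PBS pump 3 of 23 rose in CRS against PBS at an edgeR adjusted p under 0.05, against 0.962% of all genes, and the median was 0.41.

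The letters that the regulators of these chaperones are known to bind were searched in their promoters. The heat shock element, GAA, TTC and GAA with 2 bases between neighbours, was searched on both strands and lies in 2 of 20 heat shock chaperone promoters (10%) and in 0.466% of 32851. Both are the divergent pair Hspd1 and Hspe1, which share the sequence. The element that answers stress of the endoplasmic reticulum, CCAAT and CCACG with 9 bases between, was searched likewise and lies in 9 of 21 unfolded protein response promoters (42.9%) and in 0.113% of all. The 3 promoters below are shown because their genes are described above, from RefSeq on GRCm38.p6, with capitals for the heat shock element in Hspe1, where 2 matches overlap, and for the reticulum stress element in Hspa5 and Pdia6.
Hspe1, chr1:55087898-55088147, plus strand: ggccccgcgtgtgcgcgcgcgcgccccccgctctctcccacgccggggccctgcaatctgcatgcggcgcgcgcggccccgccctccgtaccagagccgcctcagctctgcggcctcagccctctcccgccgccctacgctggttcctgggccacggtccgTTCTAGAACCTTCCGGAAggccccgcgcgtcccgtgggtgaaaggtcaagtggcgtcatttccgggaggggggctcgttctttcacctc
Hspa5, chr2:34771840-34772089, plus strand: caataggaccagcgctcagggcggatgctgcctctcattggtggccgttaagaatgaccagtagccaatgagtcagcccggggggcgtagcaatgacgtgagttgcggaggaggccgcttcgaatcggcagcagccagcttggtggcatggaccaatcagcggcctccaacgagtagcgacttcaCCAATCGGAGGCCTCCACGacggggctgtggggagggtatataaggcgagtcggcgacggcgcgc
Pdia6, chr12:17266339-17266588, plus strand: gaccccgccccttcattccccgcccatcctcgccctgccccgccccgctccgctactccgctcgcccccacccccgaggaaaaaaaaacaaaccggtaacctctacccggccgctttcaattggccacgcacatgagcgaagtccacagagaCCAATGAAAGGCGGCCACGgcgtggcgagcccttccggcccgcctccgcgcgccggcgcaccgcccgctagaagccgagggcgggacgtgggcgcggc
The first base in capitals lies 89 bases before the start site in Hspe1, 65 in Hspa5 and 98 in Pdia6. No reticulum stress element was found in the heat shock or male-high promoters, and no heat shock element in the unfolded protein response promoters.

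**Figure D4:**
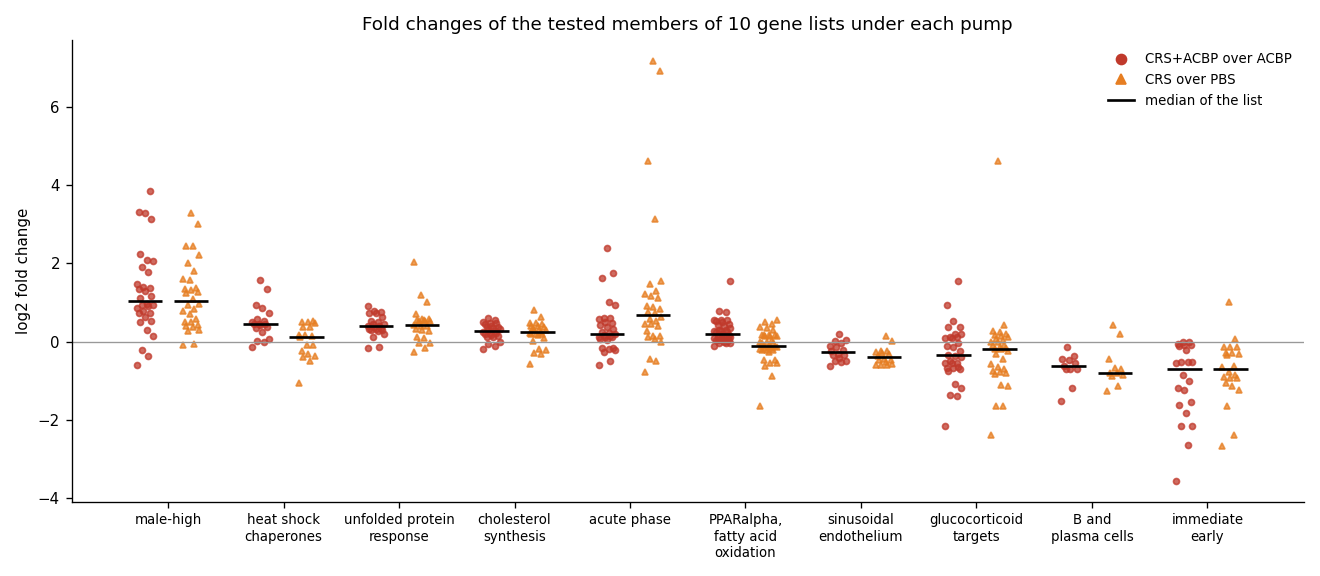
Log2 fold changes of the tested members of 10 gene lists, CRS+ACBP over ACBP as circles and CRS over PBS as triangles, with a line at each median. Male-high genes lie mostly above 0 under both pumps with medians of 1.03, immediate early genes below 0 with medians of -0.70, and acute phase genes reach log2 fold changes of 6.90 and 7.16 in CRS over PBS for Saa1 and Saa2.

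Markers of several cell types, B cells and sinusoidal endothelium among them, lay mostly below 0 in log2 fold change, and edgeR called 0 of them. Below 0 were also 15 of 16 stellate cell, 12 of 15 Kupffer cell, 6 of 8 T and NK cell and 4 of 4 neutrophil and monocyte markers. Cholangiocyte and mesothelium markers went the other way, with 4 of 6 and 3 of 4 above 0. Of all genes 49.4% lay below 0. CRS+ACBP replicate 3 held the lowest level of the 10 libraries for 11 of the 15 Kupffer cell markers. ACBP replicate 3 held the highest for 9 of 16 stellate cell and 8 of 11 B and plasma cell markers. In CRS over PBS the medians were 0.06 for Kupffer cell, 0.01 for stellate cell and 0.08 for neutrophil and monocyte markers. They were -0.38 for T and NK cell, -0.41 for sinusoidal endothelium and -0.79 for B and plasma cell markers. In bulk tissue, fewer cells of a type and less RNA per cell cannot be told apart. All 11 tested B and plasma cell markers had a log2 fold change below 0, with a median of -0.63, and 3 were lower at an unadjusted p under 0.05 (6.12% of all genes). The 3 became 6 without ACBP replicate 2 and 5 without CRS+ACBP replicate 5, and stayed 3 without ACBP replicate 4. The summed level ran between 29.7 and 42.8 CPM in CRS+ACBP and between 37.9 and 71.2 CPM in ACBP livers. Pax5, the B-lineage transcription factor, was at 0.932, 1.1, 0.625, 1.74 and 1.83 CPM in CRS+ACBP and 1.45, 3.07, 5.37, 4.87 and 2.82 CPM in ACBP livers, with overlap at ACBP replicate 1. Cd79a, a chain of the B-cell receptor, had a log2 fold change of -1.18 ± 0.35 (SE). Of 16 sinusoidal endothelium markers, 13 lay below 0, with a median of -0.28, and 4 were lower at an unadjusted p under 0.05, or 7 without ACBP replicate 4. Stab1, a scavenger receptor of these cells, was at 50.5, 66.8, 49.97, 61.1 and 85.8 CPM in CRS+ACBP and 84.8, 101, 90.6, 81.5 and 88.2 CPM in ACBP livers, and Fcgr2b, their Fc receptor, averaged 25.6 ± 3.8 CPM in CRS+ACBP and 33.9 ± 3.53 CPM in ACBP livers. Of 34 interferon-stimulated genes, 27 lay below 0 and 5 were lower at an unadjusted p under 0.05. They were 2 without ACBP replicate 1, 3 without CRS+ACBP replicate 3 and 11 without CRS+ACBP replicate 5. Oasl2 and Irf7, an antiviral synthetase-like protein and an interferon regulatory factor, had log2 fold changes of -0.72 and -0.38.

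At an unadjusted p under 0.05, 6.12% of all genes were lower and 4.86% higher. Of 23 p53 targets, 6 were lower and 0 higher at that level. Among the lower ones were Gdf15, a stress hormone that limits food intake, and Plk3, a stress-responsive kinase. Gdf15 was at 14.5, 16.4, 7.88, 12 and 10.2 CPM in CRS+ACBP and 33.1, 18.2, 41.9, 57.5 and 8.35 CPM in ACBP livers. Its log2 fold change of -1.41 was -1.09 without ACBP replicate 4. Of 19 interleukin-6 and STAT3 signalling genes, 4 were lower and 1 higher. Pim3, a kinase induced by STAT signals, averaged 75.8 ± 19.5 CPM in CRS+ACBP and 156 ± 56.7 CPM in ACBP livers. Socs1, a feedback inhibitor of cytokine receptors, averaged 0.508 ± 0.272 CPM in CRS+ACBP and 1.4 ± 0.31 CPM in ACBP livers, without overlap. The 21 clock genes had 2 lower and 0 higher at that level, and Per1 was 1 of them. CRS+ACBP replicate 1 held the lowest level of the 10 libraries for 16 of the 21 clock genes and the highest for the other 5. In that liver Arntl, the clock activator BMAL1, named after its values were seen, was at 21.1 CPM, against 0.42 to 1.36 CPM in the other CRS+ACBP livers and 0.43 to 5.29 CPM in ACBP livers. Its log2 fold change of 1.16 was -1.25 without that library. Without that library the male-high count was 21 of 32, the acute phase count 5 of 30 and the heat shock count 9 of 19.

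Dbi itself was at 1054, 737, 784, 779 and 532 CPM in CRS+ACBP and at 649, 677, 478, 587 and 784 CPM in ACBP livers. The groups overlapped, with a log2 fold change of 0.27 ± 0.18 (SE) and an edgeR adjusted p of 0.582. The log2 fold change was 0.15 without CRS+ACBP replicate 1 and 0.18 without ACBP replicate 3. The count covers the mouse transcript and not the protein delivered by the pump. Among the 6 tested genes with an acyl-CoA-binding domain, 0 had an unadjusted p under 0.05. The same held for the 4 tested genes of the GABA-A receptor list, which were 3 receptor subunits and the mitochondrial translocator protein Tspo. Of 16 appetite and feeding hormone genes, 1 was higher and 2 were lower at that level, where all genes had 4.86% higher and 6.12% lower. The list of glycolysis, glycogen and insulin signalling had 3 higher and 3 lower of 19, gluconeogenesis 2 higher and 4 lower of 17, the angiopoietin-like proteins and lipases 2 higher and 4 lower of 19, and iron handling 0 higher and 1 lower of 20. NRF2 targets, which answer oxidative stress, had 5 higher and 1 lower of 25. Antigen presentation genes had 0 higher and 4 lower of 16, and T and NK cell markers 0 higher and 1 lower of 8. Stellate cell markers had 0 higher and 1 lower of 16, or 4 lower without ACBP replicate 4. Kupffer cell markers had 0 of 15 in either direction at that level.

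The share of reads on mitochondrial genes was 6.28%, 6.58%, 7.84%, 4.73% and 15.3% in CRS+ACBP and 10.6%, 8.37%, 9.87%, 11.7% and 8.30% in ACBP libraries. It averaged 8.15 ± 4.17% in CRS+ACBP and 9.77 ± 1.47% in ACBP (SD, n = 5 each), a difference of -1.62 percentage points with a two-sided exact permutation p of 0.444, where 0.00794 is the smallest possible. CRS+ACBP replicate 5 lay above every ACBP library, and the other 4 CRS+ACBP libraries lay below every one. Without that replicate the difference was -3.41 percentage points (exact permutation p 0.00794). This fit was added after the data were seen, and its p follows from that order of the libraries. It is therefore not a separate test of the share.

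Gene by gene, the restraint effects under both pumps leaned the same way. Over 14542 genes tested in both comparisons, which share no library, Pearson's r across genes was 0.42, Spearman's rho was 0.456, and 67.4% had the same sign, where genes are not independent replicates. CRS against PBS had 265 genes past an edgeR adjusted p of 0.05 of 14867, 143 higher (0.962%) and 122 lower (0.821%). The number was 120, 121, 784 and 82 without CRS replicate 2, 3, 4 or 5, and 134, 105 and 82 without PBS replicate 1, 4 or 5. Of the 261 also tested under the ACBP pump, 242 (92.7%) had the same sign there. Of 140 that rose, 129 were above 0 under the ACBP pump and 61 had an unadjusted p under 0.05, with a median log2 fold change of 0.49 there and 1.05 under the PBS pump. Of 121 that fell, 113 were below 0 and 51 had an unadjusted p under 0.05, with medians of -0.42 and -0.77. None of the 261 had the opposite sign at an unadjusted p under 0.05. Genes chosen by a test in CRS against PBS have fold changes drawn large there, which the smaller medians under the ACBP pump cannot tell apart from a weaker response. Whether the response was weaker over these genes was not tested. By edgeR only Saa2 passed the test of the difference.

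**Figure D5:**
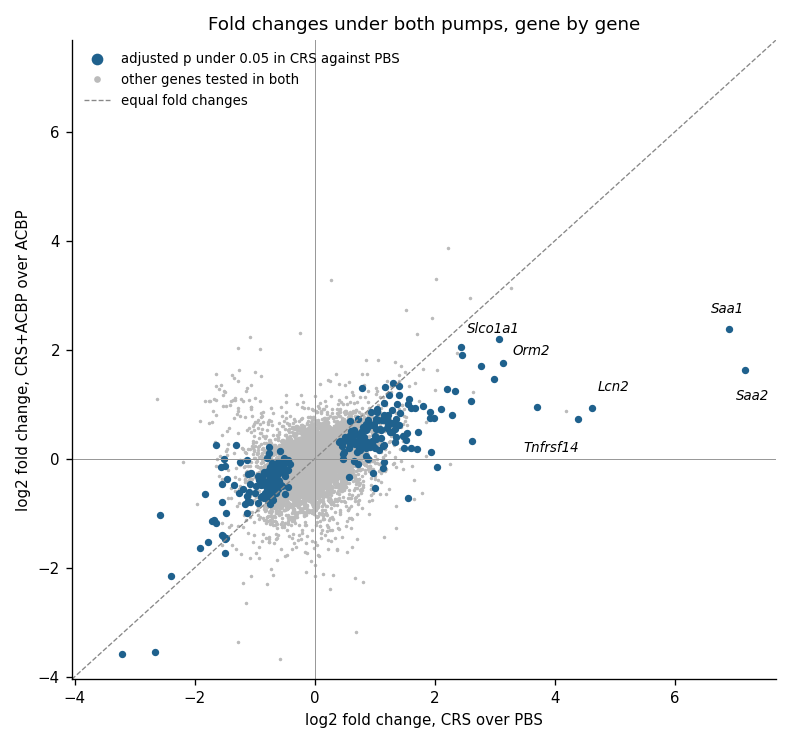
Log2 fold change of each gene in CRS+ACBP over ACBP against that in CRS over PBS, with genes called in CRS against PBS in blue and a dashed line of equal fold changes. Saa2, Saa1, Lcn2 and Tnfrsf14 lie farthest below the line, at log2 fold changes between 4.38 and 7.16 under the PBS pump and between 0.73 and 2.38 under the ACBP pump.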

How the data were processed

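Liver total RNA was made into strand-specific mRNA libraries, per the labels' protocols. The authors aligned the reads to mm10 with HISAT2 2.2.1 and counted them with HTSeq 2.0.3, per the submitters' processing notes, and deposited 1 table of raw read counts for 48440 genes. The annotation release and the strand setting of the counting were not given in the sources used here, so counts of overlapping genes and close copies are uncertain. A median of 38.0% of the reads was on genes, and 5 summary lines were left out. Symbols and positions came from GENCODE vM21, in which 99.2% of the IDs matched, and promoter sequences from RefSeq on GRCm38.p6.

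Groups follow the treatment in the labels. Genes that passed filterByExpr in the libraries compared were scaled by TMM and tested with edgeR 4.0.16 (quasi-likelihood, R 4.3.3), with Benjamini-Hochberg adjustment over all genes tested and 0.05 as threshold. DESeq2 1.42.0, limma 3.58.1 (voom with quality weights), other filters and left-out libraries were alternatives, and the procedure was tested on simulated data. SE is the log2 fold change over the square root of F. CPM values used TMM factors over 30 libraries, and a list's summed level is the sum of its CPM. The muscle score is the mean log2 CPM of the muscle list. The share of mitochondrial reads was compared by an exact permutation test.

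The comparison, the 48 gene lists and the tests were chosen with earlier results of these data known. Lists are described by counts and medians, with no set test. Genes named are Dbi, the 10 smallest p, up to 2 members of smallest p per list and the 5 smallest p of the difference between pumps with a mean of at least 5 CPM. Others are said to be named after their values were seen. Some results that these rules name are not reported here.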

Additional observations from a re-analysis of the deposited data

Results flagged for a closer look

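A library was taken as standing apart when its gap to the nearest library of its group, over the range of the group, passed Dixon's critical value of 0.71 for 5 libraries. Among 144 groups of values read, 16 libraries stood apart. Some genes were named after their values were seen, and genes of a library are not independent. This count is therefore not compared with chance. In CRS+ACBP livers the highest library held 21.1 CPM of Arntl (the next 1.36), 927 CPM of Hspa5 (407), 156 CPM of Mup11 (59.5) and 325 CPM of Pdia6 (183), and the lowest held 121 CPM of Hspe1 (186). Arntl, Hspa5 and Pdia6 were highest in replicate 1 and Mup11 in replicate 5.

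In ACBP livers replicate 4 held 73.4 CPM of Jun (the next 22.6), 410.1 CPM of Zfp36 (208), 309 CPM of summed brain markers (33.0) and 1518 CPM of summed erythroid markers (518). Replicate 1 held 133 CPM of Nr4a1 (7.76) and 147 CPM of Igfbp1 (55.2). Replicate 2 held 88.9 CPM of Lcn2 (29.3), 95.6 CPM of Saa1 (27.4) and 2571 CPM of summed muscle markers (153). The highest ACBP library for Mup7 held 0.798 CPM (0.361) and the lowest for Fads2 held 53 CPM (86.3).

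The restraint effect on Saa2 differed between the pumps, with a log2 difference of -5.52 and an edgeR adjusted p of 0.0171 for the interaction. Over left-out libraries that edgeR adjusted p ran between 0.00423 and 0.0688. With all 30 libraries in 1 fit it was 0.836.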

How the results depend on the processing

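The count of 0 genes in CRS+ACBP against ACBP was also 0 with RLE scaling, other filters, limma voom, a fold of at least 1.5 and fits on 20 or 30 libraries. It was 72 with DESeq2, 2 with the muscle score as a covariate (Hsd3b5 and Mup7), and 4 without the libraries high in muscle or brain transcripts (Hsd3b5, Orm2, Mup7 and Sult2a1), which left 2 CRS+ACBP and 3 ACBP libraries. Leaving out each library gave 0 to 4. Without ACBP replicate 4, no filter on low counts gave 13 genes and DESeq2 50. CRS against PBS gave 265 genes, with 881 by DESeq2, 840 by limma voom, 22 at a fold of at least 1.5, and 82 to 784 over left-out libraries. The difference between pumps gave 1 gene by edgeR and 1 by limma voom. DESeq2 gave 6, which were Saa2, Saa1, Lcn2, Tnfrsf14, Ucp1 and RP23-118B13.1. The edgeR count was 0 with 30 libraries in 1 fit. It was 0 to 2 over left-out libraries, where G0s2 was called without ACBP replicate 1. The difference in mitochondrial share was -3.41 percentage points without CRS+ACBP replicate 5, and ran between -3.41 and -0.763 over left-out libraries. The exact permutation p of 0.00794 without that replicate follows from leaving out the 1 CRS+ACBP library above the controls. Of 1363 values of 65 named genes under alternatives, 1326 kept direction and side of the threshold, 36 came past it and 1 reversed. No named gene had passed in the main fit, so keeping its side meant not passing, a missing adjusted p included. DESeq2 gave 28 of the 36. The reversed value was that of Arntl, at -1.25 without CRS+ACBP replicate 1 (-1.25 to 1.82 over left-out libraries). The causes were not tested. Counts of list members under alternatives, left-out libraries for the mitochondrial share and for the named pump differences, and the muscle covariate without ACBP replicate 4 were added after seeing the data. No paired analysis was possible because replicate numbers only follow accession order.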
